A study of Mus musculus with 6 samples.

Results

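The intercalated disc joins cardiac muscle cells end to end, and 10 genes that encode its gap junction, desmosomal, adherens junction, and scaffold proteins were followed in the mouse left ventricle (LV). The members were *Gja1*, *Dsp*, *Pkp2*, *Jup*, *Dsg2*, *Dsc2*, *Cdh2*, *Ctnna3*, *Ctnnb1*, and *Tjp1*, taken by gene name and joined by gene identifier to the counts of each mouse. They are 10 of the 56923 genes listed and of the 17212 genes with enough counts to be tested, and all 10 passed that filter. The mRNA-Seq compared 3 WT mice with 3 mice that carry a heterozygous *Lztr1* R409C knock-in allele (*Lztr1* R409C/+), all at 12 weeks of age. The sample labels give the genotypes only as wild-type and mutant and the tissue as heart. The study's results text ties the mRNA-Seq to the R409C allele. Its methods name the LV, and describe male mice on a C57BL/6J background that were perfused with saline. The knock-in is in the germ line, so every cell type of the ventricle carries it. The question addressed here is whether the mRNA levels of the disc genes differed between the genotypes.

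At the disc, desmosomes tie the intermediate filaments of neighboring cells together, adherens junctions tie their actin filaments, and gap junctions let ions pass so that the action potential spreads. In the heart these structures intermix, and their proteins share partners. Inherited variants in desmosomal genes are a known cause of arrhythmogenic cardiomyopathy. LZTR1 is a substrate adaptor for a ubiquitin ligase that acts on RAS family proteins.

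No member differed between the genotypes after correction for all genes tested. The level of 9 of the 10 members was lower in the *Lztr1* R409C/+ mice by the estimate, where 8359 of the 17212 genes tested had a lower estimate, and the median log2 fold change was -0.20 over the 10 members beside 0.01 over all genes. Leaving out 1 mouse moved the members' median to between -0.31 (without WT replicate 3) and -0.12 (without *Lztr1* R409C/+ replicate 1), with -0.13 without WT replicate 2. The count of lower members ran from 8 to 10 over the other scalings and tests and from 7 to 10 without 1 mouse. None of the 10 had an adjusted p below 0.05 by edgeR's quasi-likelihood test, where 7 genes (0.0407%) of all those tested did, and DESeq2 and edgeR's exact test also called none of the 10. None had an unadjusted p below 0.05, which 8.63% of all genes had. For *Dsp* and *Ctnna3*, the highest *Lztr1* R409C/+ mouse lay below the lowest WT mouse, that is for 2 of 10 members beside 7.23% of all genes. Over the other scalings this count ran from 1 to 3, not always of the same members, beside 4.75% to 9.88% of all genes. The edgeR p-values set the difference between the genotypes against the spread between mice within a genotype, here 3 and 3 mice. For each gene, the estimate of that spread also drew on the other genes tested.

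Libraries held from 66130887 to 72641124 counts. Unless a sentence says otherwise, values are CPM, the counts of a gene scaled to a common library size with the trimmed mean of M values (TMM). The share of counts from the mitochondrial genome was 13.8% in WT replicate 3 and 45.4% in *Lztr1* R409C/+ replicate 1, with 29.7% to 37.3% in the other 4 libraries. Cardiomyocyte markers were abundant in every library, whereas the atrial markers *Myl7* and *Sln* were at 0 in the WT mice and had means of 0.111 and 0.0184 CPM in the *Lztr1* R409C/+ mice. Of the other 4 genes on the atrial list, *Myl4* was under 1 CPM in every mouse, and 3 were present, with means of 54.5 and 78.6 CPM in WT and *Lztr1* R409C/+ mice for *Nppa*, 16.91 and 16.04 CPM for *Tbx5*, and 8.49 and 9.62 CPM for *Nr2f2*. None of the 4 had an unadjusted p below 0.05 by edgeR. For *Lztr1* itself, the 3 WT mice had 22.2 to 24.2 CPM and the 3 *Lztr1* R409C/+ mice 23.9 to 27.9 CPM. Gene counts do not read the R409C substitution, so they do not check the genotypes.

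Per kilobase of the canonical transcript, *Ctnnb1*, *Dsp*, and *Gja1* were the most abundant members. Means over the 6 mice were 101 CPM per kilobase for *Ctnnb1*, 95.5 for *Dsp*, and 80.6 for *Gja1*. *Jup* followed at 53.6, *Cdh2* at 48.3, and *Pkp2* at 39.7 CPM per kilobase. The desmosomal cadherins lay lower, *Dsg2* at 12.4 and *Dsc2* at 9.93 CPM per kilobase, close to *Tjp1* at 12.1. *Ctnna3* was the lowest member at 1.91 CPM per kilobase, although it still stood above 70.2% of the tested genes by CPM. The ranges over the 6 mice overlapped between every pair of neighbors in this order except at 3 steps, from *Gja1* to *Jup*, from *Pkp2* to *Dsg2* and from *Dsc2* to *Ctnna3*.

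**Figure D1:**
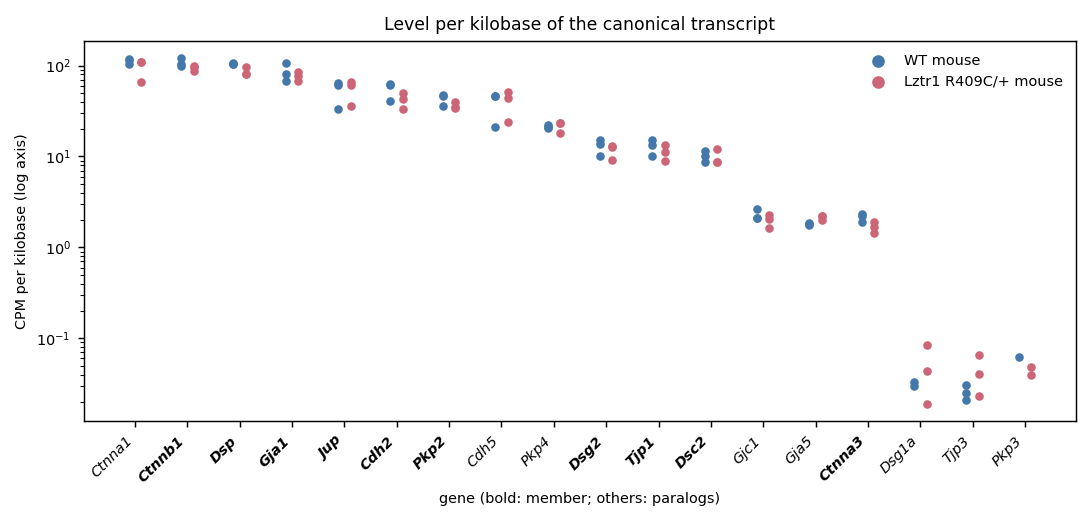
Level of the 10 members (bold) and of related genes in each mouse, as CPM per kilobase of the canonical transcript on a log axis, with WT mice in blue and *Lztr1* R409C/+ mice in red. *Ctnnb1* is highest among the members at a mean of 101 and *Ctnna3* lowest at 1.91, and libraries with no count for a gene are not drawn.

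Most close relatives of the members were nearly silent in these ventricles. The skin desmosomal genes *Dsg1b*, *Dsg1c*, *Dsg4*, *Dsc1*, *Dsc3*, and *Pkp1* and the epithelial cadherin *Cdh1* had no count in any library, where 3 counts would be 0.0317 to 0.0541 CPM. *Dsg1a*, *Dsg3*, *Pkp3*, *Ctnna2*, and *Tjp3* were under 0.5 CPM in each mouse. Among the relatives that were present, *Ctnna1*, the widely expressed alpha-catenin, reached a mean of 104 CPM per kilobase, and *Pkp4* 21.4. The endothelial cadherin *Cdh5* was at 38.8, the connexin gene *Gjc1* at 2.15, and *Gja5* at 1.97 CPM per kilobase. Per kilobase, *Gja1* was the most abundant connexin transcript, and *Dsg2* and *Dsc2* were the most abundant desmosomal cadherin transcripts.

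The upstream sequences of 3 members are shown because *Dsp* and *Ctnna3* were the members whose genotype groups did not overlap, and *Jup* was the member with the widest spread between mice. Each is the 250 bases before the start of the canonical GENCODE transcript in GRCm39, on the strand of the gene, with GC boxes (GGGCGG, read on both strands) in capitals. The windows are chr13:38334980-38335229 (plus strand) for *Dsp*, chr10:63293039-63293288 (plus strand) for *Ctnna3*, and chr11:100288662-100288911 (minus strand) for *Jup*.
Dsp: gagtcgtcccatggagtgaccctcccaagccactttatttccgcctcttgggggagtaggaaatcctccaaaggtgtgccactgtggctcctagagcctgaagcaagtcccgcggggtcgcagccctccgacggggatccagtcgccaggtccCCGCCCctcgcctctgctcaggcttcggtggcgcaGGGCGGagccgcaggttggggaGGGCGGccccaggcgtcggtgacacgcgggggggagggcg
Ctnna3: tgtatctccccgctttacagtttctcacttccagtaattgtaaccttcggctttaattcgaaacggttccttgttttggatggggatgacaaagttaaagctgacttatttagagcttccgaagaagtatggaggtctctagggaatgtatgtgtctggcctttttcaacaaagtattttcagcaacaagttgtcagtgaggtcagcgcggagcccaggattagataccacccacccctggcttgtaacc
Jup: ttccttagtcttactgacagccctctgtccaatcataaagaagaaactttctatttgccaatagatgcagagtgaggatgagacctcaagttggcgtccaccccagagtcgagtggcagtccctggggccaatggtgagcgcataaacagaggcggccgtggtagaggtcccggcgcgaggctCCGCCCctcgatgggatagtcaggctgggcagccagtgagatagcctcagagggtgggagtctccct
The *Dsp* window had a GC content of 68.8%, 20 CpG dinucleotides, and 3 GC boxes. The *Ctnna3* window had a GC content of 44.8%, 7 CpG dinucleotides, and no GC box, and the *Jup* window had 56.8%, 10, and 1, respectively. GC boxes were found in 36.3% of the 21751 windows of protein-coding genes, whose median GC content was 53.2%. Neither TATAAA (11.9% of all windows), TGACTCA (4.02%), CANNTG (64.8%), nor AGATAA (9.6%), each read on both strands, was in any of the 3 windows.

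*Gja1* (chr10:56253241-56278609, plus strand) encodes connexin 43, the main gap junction protein of the ventricle. Its level in WT mice, here and below in the order of the replicate numbers, was 380.0, 498.8, and 321.5 CPM, and in *Lztr1* R409C/+ mice 314.3, 359.9, and 398.3 CPM. The groups overlapped, since the third *Lztr1* R409C/+ mouse stood above 2 of the WT mice. The means were 400.1 ± 90.4 CPM (SD, n = 3) in WT and 357.5 ± 42.0 CPM (SD, n = 3) in *Lztr1* R409C/+ mice. The log2 fold change was -0.16 with a 95% interval from -0.58 to 0.25 (edgeR adjusted p = 0.853). Without WT replicate 2, the highest library, it was 0.02, and without WT replicate 3, *Lztr1* R409C/+ replicate 1, or *Lztr1* R409C/+ replicate 3 it was -0.30, -0.09, and -0.25.

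*Dsp* (chr13:38335230-38382553, plus strand), which encodes desmoplakin, the link from the desmosome to intermediate filaments, had the highest CPM of the members. The 3 WT mice had 1027, 996, and 1003 CPM, and the 3 *Lztr1* R409C/+ mice had 785, 771, and 938 CPM. The WT mice lay close together, with a SD of 16.5 CPM around a mean of 1009 CPM, and each *Lztr1* R409C/+ mouse was below all of them, with a mean of 831 ± 92.8 CPM (SD, n = 3). The log2 fold change was -0.28 with a 95% interval from -0.64 to 0.09 (edgeR adjusted p = 0.68). The groups also stayed apart under scaling by DESeq2's size factors or by the upper quartile, but overlapped when libraries were scaled by their size alone or corrected for gene length.

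*Pkp2* (chr16:16031144-16090586, plus strand) encodes plakophilin 2 and *Jup* (chr11:100259784-100291103, minus strand) plakoglobin, both armadillo proteins of the desmosomal plaque. *Pkp2* was at 135, 142, and 106 CPM in the WT mice and 100.3, 118, and 103 CPM in the *Lztr1* R409C/+ mice. WT replicate 3 fell among the *Lztr1* R409C/+ mice, and the log2 fold change was -0.25 with a 95% interval from -0.61 to 0.11 (edgeR adjusted p = 0.71). *Jup* was at 213, 201, and 111 CPM in the WT mice and 119, 200.2, and 217 CPM in the *Lztr1* R409C/+ mice. The spread of *Jup* lay within both groups, because WT replicate 3 and *Lztr1* R409C/+ replicate 1 were low and the other 4 mice lay between 200.2 and 217 CPM. It was the only member with an estimate above 0, a log2 fold change of 0.03 with a 95% interval from -0.55 to 0.61 (edgeR adjusted p = 0.982), and that sign turned with the scaling and with the mouse left out, to as low as -0.21 without WT replicate 3.

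The desmosomal cadherins *Dsg2* (chr18:20691074-20737581, plus strand) and *Dsc2* (chr18:20163675-20192717, minus strand) span the gap between neighboring cells. *Dsg2* was at 80.5, 87.9, and 59.5 CPM in the WT mice and 53.6, 75.7, and 74.4 CPM in the *Lztr1* R409C/+ mice. *Dsc2* was at 47.8, 53.6, and 40.6 CPM in the WT mice and 40.8, 57.0, and 40.5 CPM in the *Lztr1* R409C/+ mice. Both genes overlapped widely between the genotypes. Their log2 fold changes were -0.16 for *Dsg2* (95% interval from -0.58 to 0.26, edgeR adjusted p = 0.856) and -0.04 for *Dsc2* (95% interval from -0.43 to 0.35, edgeR adjusted p = 0.97). The estimate of *Dsc2* was 0.06 without WT replicate 2 and -0.23 without *Lztr1* R409C/+ replicate 2. The estimate of *Dsg2* was -0.02 without *Lztr1* R409C/+ replicate 1, -0.05 without WT replicate 2, -0.25 without *Lztr1* R409C/+ replicate 2, and -0.31 without WT replicate 3.

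*Cdh2* (chr18:16700793-16942381, minus strand) encodes N-cadherin, the classical cadherin of the cardiac adherens junction, and had the lowest estimate of the members. It was at 307, 302, and 202 CPM in the WT mice and 165, 243, and 209 CPM in the *Lztr1* R409C/+ mice. WT replicates 1 and 2 stood above all *Lztr1* R409C/+ mice, but WT replicate 3 fell between the first and the third of them. The log2 fold change was -0.39 with a SE of 0.21 and a 95% interval from -0.84 to 0.05 (edgeR adjusted p = 0.625), where the adjusted p ran from 0.42 to 0.976 over the alternative settings. Without 1 mouse the estimate ran from -0.57 (without WT replicate 3) to -0.26 (without *Lztr1* R409C/+ replicate 1, edgeR unadjusted p = 0.219). Without WT replicate 3 the unadjusted p of *Cdh2* was 0.0138 by edgeR (adjusted p = 0.499), where 7.92% of all genes had an unadjusted p below 0.05.

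*Ctnna3* (chr10:63265877-64846348, plus strand) encodes alpha-T-catenin, a heart-enriched alpha-catenin that binds beta-catenin and plakophilin 2. Its level was 24.9, 23.6, and 20.06 CPM in the WT mice and 15.2, 20.01, and 17.9 CPM in the *Lztr1* R409C/+ mice. All 3 *Lztr1* R409C/+ mice were below all 3 WT mice, although the closest pair differed by under 1 CPM. The means were 22.8 ± 2.5 and 17.7 ± 2.43 CPM (SD, n = 3 each), and the log2 fold change was -0.37 with a 95% interval from -0.74 to 0.0021 (edgeR adjusted p = 0.578). The groups overlapped under scaling by the upper quartile and after length correction.

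*Ctnnb1* (chr9:120757422-120789579, plus strand), which encodes beta-catenin, a junction protein that also acts in WNT signaling, was at 359, 375, and 441 CPM in the WT mice and 318, 359, and 351 CPM in the *Lztr1* R409C/+ mice. Here WT replicate 3 was the highest of the 6 libraries, whereas it was the lowest WT library for 8 members. The log2 fold change was -0.19 with a 95% interval from -0.54 to 0.16 (edgeR adjusted p = 0.783), and it was -0.10 without WT replicate 3 and -0.05 with *Lztr1* R409C/+ replicate 1 left out as well. The scaffold gene *Tjp1* (chr7:64945898-65177529, minus strand) encodes ZO-1, which binds the tail of connexin 43. It was at 92.8, 106, and 71.0 CPM in the WT mice and 61.3, 93.2, and 77.8 CPM in the *Lztr1* R409C/+ mice, with overlapping groups and a log2 fold change of -0.22 with a 95% interval from -0.64 to 0.21 (edgeR adjusted p = 0.806). Its estimate was -0.08 without *Lztr1* R409C/+ replicate 1 or WT replicate 2, -0.36 without WT replicate 3, and -0.38 without *Lztr1* R409C/+ replicate 2.

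**Figure D2:**
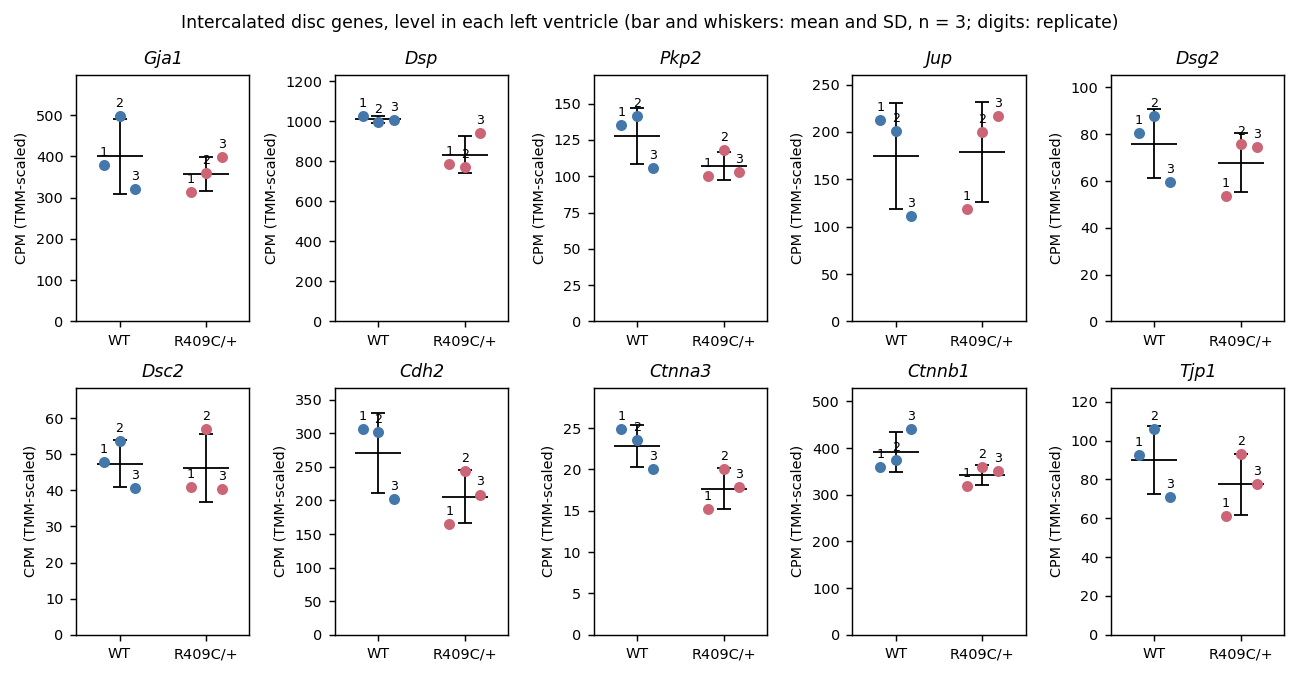
CPM of each member in each mouse (points, digits give the replicate) with the group mean and SD (black bar and whiskers, n = 3), every vertical axis starting at 0. *Dsp* and *Ctnna3* do not overlap between WT and *Lztr1* R409C/+ mice, and *Jup* is low in WT replicate 3 and *Lztr1* R409C/+ replicate 1 alone.

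**Figure D3:**
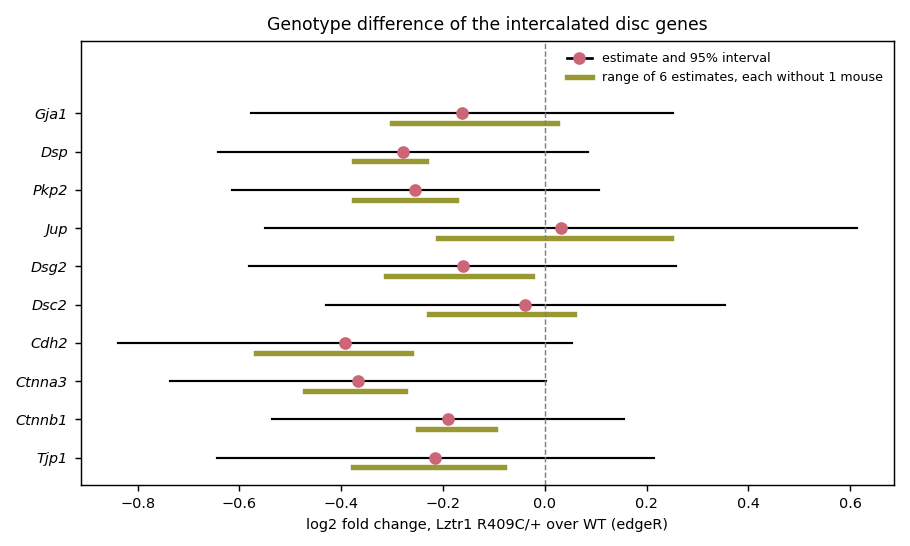
Log2 fold change of each member, *Lztr1* R409C/+ over WT, with its 95% interval (black) and the range of the 6 estimates that each leave out 1 mouse (olive). Every interval includes 0, and the estimates run from -0.39 for *Cdh2* to 0.03 for *Jup*.

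The rank of the libraries was similar for most members. *Lztr1* R409C/+ replicate 1 was the lowest of the 6 libraries for 7 members, and WT replicate 3 was the lowest WT library for 8 members. The summed CPM of the 10 members was 2667, 2785, and 2375 in the WT mice and 1973, 2297, and 2427 in the *Lztr1* R409C/+ mice, so that the groups overlapped. These are the libraries with the highest and the lowest mitochondrial share. The summed level of the 10 cardiomyocyte markers was also lowest in *Lztr1* R409C/+ replicate 1. It was 34460 CPM there, beside 41270 to 49040 CPM in the other 5 libraries. The markers did not all follow the sum. *Myh6* was at 6330 CPM in that library and at 11880 to 17350 CPM in the other 5, whereas *Pln* was highest in it, at 7060 CPM. Of these 10 markers, 0 had an unadjusted p below 0.05 between the genotypes by edgeR. The cardiomyocyte markers had a median log2 fold change of -0.14, with 6 of 10 lower, beside -0.20 for the members. The part of the mitochondrial share and of cell composition in the members' levels was not tested, and in whole tissue, fewer cells of a type and less RNA per cell cannot be told apart. With WT replicate 3 and *Lztr1* R409C/+ replicate 1 both left out, a setting chosen after seeing the data, the median log2 fold change of the members was -0.22 (beside -0.31 and -0.12 with only the first or only the second of them left out), and *Pkp2*, *Cdh2*, and *Ctnna3* had unadjusted p values of 0.0438, 0.0128, and 0.0483 by edgeR (adjusted p = 0.567, 0.42, and 0.583). In that setting 8.5% of all genes had an unadjusted p below 0.05.

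**Figure D4:**
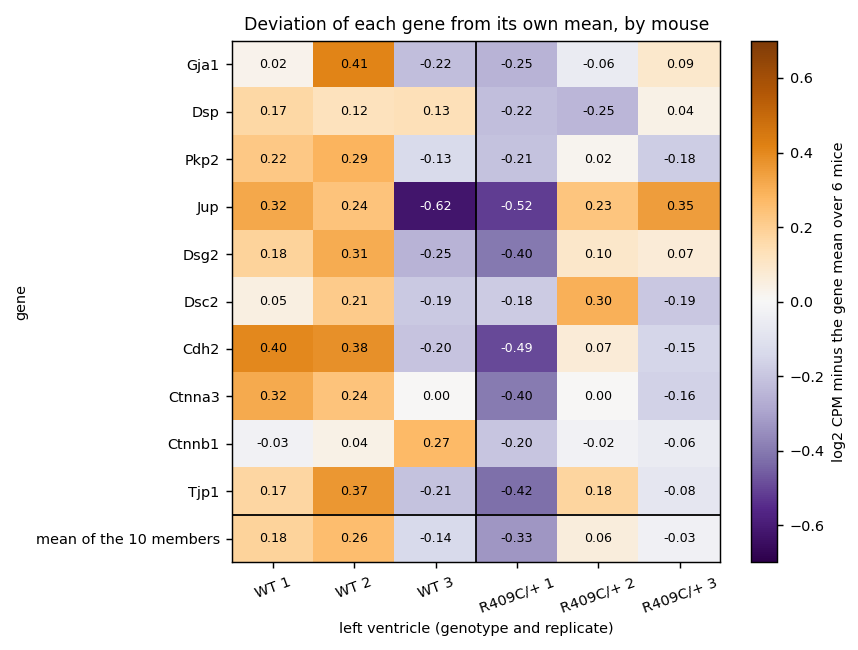
Deviation of each member's log2 CPM from its own mean over the 6 mice, by mouse, with the mean of the 10 members in the bottom line. The mean deviation is lowest in *Lztr1* R409C/+ replicate 1 (-0.33) and highest in WT replicate 2 (0.26).

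The genes whose log2 CPM was most like the mean of the members over the 6 mice were *Prrc2c* (Pearson's r = 0.997), *Ubqln2* (r = 0.995), and *Cacnb2* (r = 0.993), given as a description. *Cacnb2* encodes a beta subunit of voltage-gated calcium channels.

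Ratios of members to partners within a library do not depend on the scaling between libraries. The 4 ratios compared were *Ctnna3* over *Ctnna1*, *Jup* over *Ctnnb1*, *Dsg2* over *Dsc2*, and *Gja1* over *Cdh2*, and each overlapped between the genotypes. Per kilobase, *Ctnna3* transcripts were 0.0153 to 0.0216 of *Ctnna1* transcripts. *Gja1* over *Cdh2* was 1.3, 1.73, and 1.67 in the WT mice and 2.0, 1.55, and 2.0 in the *Lztr1* R409C/+ mice. The log2 difference of this ratio was 0.24 (2-sided exact permutation p = 0.3, adjusted p = 0.6 over the 4 ratios), and the other 3 gave exact permutation p = 0.6. Without 1 mouse, the difference for *Gja1* over *Cdh2* ran from 0.11 (without WT replicate 1) to 0.36 (without *Lztr1* R409C/+ replicate 2). With 3 mice against 3, the smallest p this test allows is 0.1.

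The other genes of these structures were described from fixed lists. Of 21 other gap junction genes, 8 were tested, 6 with a higher and 2 with a lower estimate, and none had an unadjusted p below 0.05. Among them, *Gja5*, which encodes connexin 40 of the conduction system and arteries, had 5.66, 5.50, and 5.88 CPM in WT and 6.24, 6.90, and 6.87 CPM in *Lztr1* R409C/+ mice (edgeR adjusted p = 0.776). The smallest p values belonged to *Gja4* (log2 fold change 0.40, edgeR adjusted p = 0.71) and *Panx1* (0.44, edgeR adjusted p = 0.736), and the most abundant gene per kilobase was *Gja3* at 4.81. None of the other connexin genes passed the test with these mice.

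Of 14 other desmosomal genes, 6 were tested, 3 higher and 3 lower, none with an unadjusted p below 0.05. *Des*, which encodes desmin, the intermediate filament protein of muscle, was the most abundant at 349 CPM per kilobase and had a log2 fold change of -0.15 (edgeR adjusted p = 0.876). *Perp*, a desmosomal membrane protein gene, had -0.27 (edgeR adjusted p = 0.703), and *Evpl* 1.30 (edgeR adjusted p = 0.757) at under 1 CPM. Of 16 other adherens junction genes, 13 were tested, 5 higher and 8 lower, none with an unadjusted p below 0.05. *Ctnnal1*, a relative of the alpha-catenins, had -0.31 (edgeR adjusted p = 0.604), *Ctnna1* had -0.23 (edgeR adjusted p = 0.799), and the delta-catenin gene *Ctnnd2* had 1.86 (edgeR adjusted p = 0.663) at under 1 CPM.

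Of 28 other disc scaffold and partner genes, 27 were tested, 22 with a lower and 5 with a higher estimate, and the median log2 fold change was -0.15. None was called after adjustment. An unadjusted p below 0.05 was found for 3 of the 27, all lower, beside 8.63% of all genes tested, of which 493 were lower and 993 higher. The 3 were *Slmap*, which encodes a sarcolemmal membrane protein, *Sorbs2*, an adaptor at the disc and Z line, and *Bves*, a Popeye domain protein. *Slmap* was at 230, 221, and 286 CPM in WT and 185, 174, and 150 CPM in *Lztr1* R409C/+ mice, with a log2 fold change of -0.53 (edgeR unadjusted p = 0.00746, adjusted p = 0.393). For *Sorbs2* the log2 fold change was -0.46 (edgeR adjusted p = 0.495), and for *Bves* it was -0.39 (edgeR adjusted p = 0.568). *Csrp3*, the most abundant of the list at 561 CPM per kilobase and a muscle LIM protein gene, had an estimate of 0.30 (edgeR adjusted p = 0.623). Over the 4 lists together, 35 of 54 tested genes had a lower estimate, with a median of -0.09, beside 8359 lower of the 17212 genes tested.

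Genes that act on connexin 43 or downstream of beta-catenin gave no call either. Of 15 connexin 43 trafficking and kinase genes, 7 were higher and 8 lower, none with an unadjusted p below 0.05, with *Nedd4*, a ubiquitin ligase gene and the most abundant at 90.3 CPM per kilobase, at -0.27 (edgeR adjusted p = 0.709) and the kinase gene *Camk2d* at -0.35 (edgeR adjusted p = 0.619). Of 20 genes of beta-catenin signaling, 17 were tested, 9 higher and 8 lower, and *Csnk1a1* was the most abundant at 66.3 CPM per kilobase. *Ccnd1*, the cyclin D1 gene, was at 57.7, 71.9, and 69.5 CPM in WT and 82.9, 89.3, and 102 CPM in *Lztr1* R409C/+ mice, with a log2 fold change of 0.46 (edgeR unadjusted p = 0.0131, adjusted p = 0.456). *Gsk3b*, which encodes a kinase that marks beta-catenin for degradation, had -0.38 (edgeR unadjusted p = 0.0414, adjusted p = 0.564). The feedback target *Axin2* had 0.01 (edgeR adjusted p = 0.996), whereas *Nkd1* and *Nkd2* of the same list had -0.78 and -0.67 (edgeR adjusted p = 0.741 and 0.643). Their WT means were 0.645 and 1.61 CPM. Of 9 arrhythmogenic cardiomyopathy genes outside the disc, 2 were higher and 7 lower, of which *Pln*, the phospholamban gene, was the most abundant at 1509 CPM per kilobase. *Tgfb3* had 0.46 (edgeR unadjusted p = 0.0383, adjusted p = 0.554) and the titin gene *Ttn* -0.36 (edgeR adjusted p = 0.648).

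**Figure D5:**
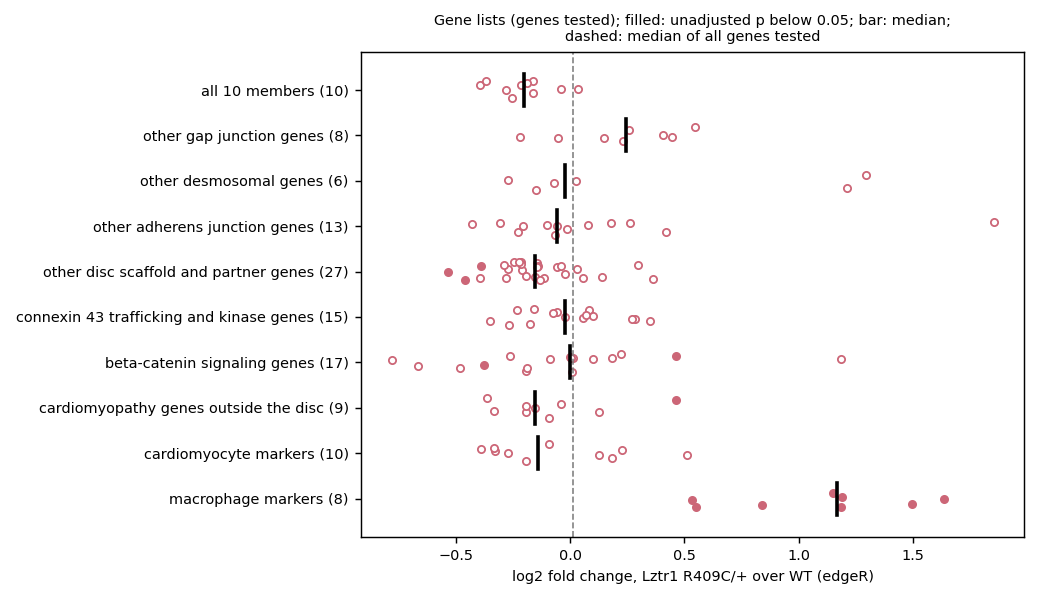
Log2 fold change, *Lztr1* R409C/+ over WT, of each tested gene of the members and of 9 other lists (points, filled where the unadjusted p was below 0.05), with the list median (bar) and the median of all genes (dashed line at 0.01). The median is -0.20 for the members and -0.15 for the other disc scaffold and partner genes, and the macrophage markers all lie to the right.

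Of the other cell types' markers, only 2 macrophage genes passed the test after adjustment for all genes. All 8 macrophage markers had a higher estimate with an unadjusted p below 0.05, and *C1qb* and *C1qc* rose after adjustment (edgeR adjusted p = 0.0241 for both). Their summed level was 185 to 211 CPM in the WT mice and 320 to 427 CPM in the *Lztr1* R409C/+ mice. All 5 red blood cell markers had higher estimates, 3 with an unadjusted p below 0.05, with sums of 579 to 1479 CPM in WT and 1042 to 2625 CPM in *Lztr1* R409C/+ mice. Of 8 fibroblast markers, 5 had a higher and 3 a lower estimate, and 3 of the higher had an unadjusted p below 0.05. Of 8 endothelial markers, 6 had a higher and 2 a lower estimate, and 2 of the higher had an unadjusted p below 0.05. Of 8 smooth muscle and pericyte markers, 3 had a higher and 5 a lower estimate, and 2 of the lower, *Myh11* and *Tagln*, had an unadjusted p below 0.05. Of the 7 epithelial and mesothelial markers, 4 were tested, 2 with a higher and 2 with a lower estimate. *Wt1*, the most abundant by CPM, had means of 4.45 and 3.93 CPM in WT and *Lztr1* R409C/+ mice and a log2 fold change of -0.18, and *Krt19* had -0.04. The 2 with a higher estimate both had an unadjusted p below 0.05 and were the mesothelial genes *Upk3b*, with means of 0.388 ± 0.291 CPM in WT and 1.76 ± 0.701 CPM in *Lztr1* R409C/+ mice (SD, n = 3 each, edgeR unadjusted p = 0.00177, adjusted p = 0.251), and *Msln*, with 0.291 ± 0.187 and 0.887 ± 0.649 CPM (SD, n = 3 each, edgeR unadjusted p = 0.0294, adjusted p = 0.532). The summed level of the 7 markers was 4.75 to 5.78 CPM in WT and 5.22 to 9.07 CPM in *Lztr1* R409C/+ mice, and the epithelial genes *Krt8*, *Krt18*, and *Epcam* had means of 0.139 CPM or less in either group. The part of these cell types in the members' levels was not tested.

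Antisense genes overlapped exons of *Dsp*, *Dsg2*, *Ctnna3*, and *Ctnnb1*, and whether counting used the strand is not given in the sources used here. Each of these neighbors had a CPM of at most 0.0974% of that of its member, a share reached beside *Dsg2*.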

How the data were processed

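The authors deposited whole-number counts per gene for 6 libraries, 1 per mouse, made per the labels and the study's methods with Trim Galore, HISAT2, and StringTie on GRCm39 after rRNA reads were excluded. Versions, annotation release, and strand use are not given in the sources used here. A deposited table of the authors' edgeR comparison, with fold changes and p-values, served only to pair gene names with identifiers. The members and gene lists were chosen with earlier results of these data known. Counts were filtered (filterByExpr), scaled by TMM, and tested 2-sided with edgeR 4.0.16 in R 4.3.3 (quasi-likelihood test, robust, no covariate, Benjamini-Hochberg over 17212 genes, threshold 0.05). DESeq2 1.42.0 was an alternative. The code was tested on simulated data. Levels per kilobase used the length of the canonical GENCODE M39 transcript in place of all exonic bases, since the union of exons was much longer for some genes (12302 against 4700 bases for *Gja1*). A planned ratio is not reported here. Named genes were all members, paralogs, and, of the junction and signaling lists, the 2 genes with the smallest unadjusted p, up to 4 with an unadjusted p below 0.05, and the most abundant gene per kilobase. *Axin2*, *Nkd1*, *Nkd2*, and the cell type genes named were added after their values were seen. Intervals are 95%, and the floor of 3 counts covers counting error only.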

Additional observations from a re-analysis of the deposited data

How the results depend on the processing

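Members called stayed at 0 under all 17 alternatives. The number of genes called, 7, was 21 when scaling by library size only, 158 with the DESeq2 Wald test, 140 with the edgeR exact test, 20 with no filter, 3 after length correction, 2 to 4 without 1 mouse, and 1 with WT replicate 3 and *Lztr1* R409C/+ replicate 1 both left out. With a replicate block it was 1, and the block changed no call of a member. Correlations of the deviations from the group mean were -0.001, 0.022, and -0.057 for same-numbered mice. For differently numbered mice they ran from -0.05 to 0.048. With 3 mice per group this does not settle whether the numbers pair the mice, and the labels do not say. Scaling by library size only moved the median log2 fold change of all genes from 0.01 to -0.14 and of the members from -0.20 to -0.34. It left 689 genes with an unadjusted p below 0.05. After length correction the medians lay closer together, at -0.05 for all genes and -0.18 for the members. Members with an unadjusted p below 0.05, 0 as reported, were 1 with DESeq2 size factors (*Ctnna3*), 2 with no filter (*Cdh2*, *Ctnna3*), 0 to 3 without 1 mouse (3 without WT replicate 3, 2 without *Lztr1* R409C/+ replicate 2), and 3 with both libraries left out, beside 6.67% to 8.72% of all genes in these settings. Members lower in every *Lztr1* R409C/+ mouse, 2 as reported, were 1 under the upper quartile (*Dsp*, beside 5.41% of all genes), 1 under length correction (*Ctnnb1*, 9.88%), and 3 by library size only (*Pkp2*, *Cdh2*, *Ctnna3*, 4.75%). Directions turned for 3 members. *Gja1* ran from -0.30 to 0.0246 without 1 mouse. *Jup* was -0.0037 by library size only, -0.039 after length correction, and -0.21 to 0.25 without 1 mouse. *Dsc2* was 0.0011 under the upper quartile and -0.23 to 0.0573 without 1 mouse. The log2 ratio differences ran without 1 mouse from -0.25 to 0.002 for *Ctnna3* over *Ctnna1* and from -0.16 to 0.46 for *Jup* over *Ctnnb1*. The cause of these moves was not tested.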
